A study of Homo sapiens with 12 samples.

Results

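The genes described here are 4 keratins of simple epithelia (KRT7, KRT8, KRT18 and KRT19), the cadherins CDH1 and CDH2, vimentin (VIM), fibronectin (FN1) and the transcription factors ZEB1 and SNAI2. They were taken by their exact names and made up 10 of the 23621 genes listed in each expression table, which also held 92 ERCC spike-in transcripts. RNA-seq was carried out on 2 established ovarian cancer cell lines, KURAMOCHI (Ku) and COV362 (Cov), after 6 hr with DMSO, the solvent, or with THZ1. THZ1 is a covalent inhibitor of the transcriptional kinase CDK7 and also inhibits CDK12 and CDK13. Each line formed 3 groups of 2 libraries, namely DMSO, THZ1 at 50 nM and THZ1 at 250 nM, which gave 12 libraries in all. Ku cells were grown in RPMI and Cov cells in DMEM, both with fetal bovine serum, and the labels describe every library as untransduced. Total RNA was brought to equal cell number and mixed with ERCC transcripts, so a level in these tables is relative to a fixed number of cells. The comparison asks how far the transcripts of epithelial and mesenchymal identity followed the general loss of transcripts under THZ1.

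Keratins are the intermediate filament proteins of epithelial cells and assemble as pairs of a type II and a type I chain, such as KRT8 with KRT18. E-cadherin, encoded by CDH1, holds epithelial cells together, whereas N-cadherin (CDH2), vimentin and fibronectin are characteristic of mesenchymal cells, and ZEB1 and SNAI2 repress CDH1 during the epithelial to mesenchymal transition. Ovarian carcinomas often carry transcripts of both kinds.

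Levels are given in FPKM, fragments normalized to transcript length and library, on the spike-in scale. Many genes share 1 low value in a library, called the floor here although up to 1951 genes in a library lay under it, and this value was between 0.0783 and 0.119 FPKM in the 6 Ku libraries and between 0.0890 and 0.110 FPKM in the 6 Cov libraries. Sequencing depth is unknown from these values, so no counting interval is given. Fold changes were tested with limma on log2(FPKM + 1) in each line alone, over the 14251 genes above 1 FPKM in at least 1 of the 12 libraries (active genes), and p-values were adjusted by Benjamini-Hochberg (limma adjusted p). A gene was called where the adjusted p was under 0.001 and the log2 fold change was beyond 0.5. Adding 1 to each FPKM understates the change of low genes such as CDH1 and SNAI2. With 2 libraries against 2, the smallest two-sided p of an exact permutation test is 0.33 for any single value, and nothing in the labels states that replicates were separate cultures, so the p-values measure the spread between these libraries, which may be technical. The tables of the lines were normalized separately, and the lines were not tested against each other. In these bulk samples, fewer cells of a kind and less RNA per cell cannot be told apart.

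Most active genes were lower under THZ1 on the deposited scale, and the members are therefore read against that shift. In Ku cells the active genes had a median log2 fold change of -0.40 at 50 nM, -1.11 at 250 nM and -0.62 from 50 to 250 nM, and in Cov cells of -0.85, -1.31 and -0.41. Giving all libraries a common median FPKM over the active genes (equal-median scaling) raised those 6 medians, in that order, by 0.51, 1.41, 0.88, 0.98, 1.63 and 0.63, and scaling by the median of ratios to the geometric mean over the active genes (median-of-ratios scaling) raised them by 0.42, 1.11, 0.66, 0.85, 1.32 and 0.44. At 250 nM against DMSO, active genes called lower and higher numbered 9774 and 7 in Ku cells on the deposited scale, 1664 and 3853 with equal-median scaling and 2708 and 1577 with median-of-ratios scaling. The same counts in Cov cells were 11971 and 15, 1613 and 3789, and 2694 and 1221. For 50 nM they were 1607 and 12, 84 and 14, and 388 and 74 in Ku cells, and 10042 and 11, 22 and 13, and 110 and 20 in Cov cells. For 250 against 50 nM they were 5132 and 6, 939 and 943, and 1580 and 198 in Ku cells, and 3474 and 12, 720 and 459, and 1129 and 71 in Cov cells. Neither of these scalings uses the spike-ins. Median-of-ratios scaling left all-gene medians between -0.0009 and 0.038, whereas equal-median scaling left them above zero, at 0.11, 0.30 and 0.25 in Ku cells and 0.13, 0.33 and 0.23 in Cov cells, so a positive value on that scale can lie under the all-gene median, as those of FN1 (0.22) and ZEB1 (0.32) did in Cov cells at 250 nM.

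In DMSO the members ranged from 0.468 to 2432 FPKM in Ku cells and from 1.89 to 1792 FPKM in Cov cells. Ku cells held most KRT8 (2432 ± 81.2 FPKM, SD, n = 2, rank 44 of 23621 genes) and KRT18 (2135 ± 82.1), followed by VIM (626 ± 35.9), FN1 (336 ± 43.2), KRT19 (47.6 ± 0.407), CDH2 (34.7 ± 4.06), ZEB1 (7.89 ± 1.55), KRT7 (4.61 ± 0.0986), SNAI2 (2.77 ± 0.00513) and CDH1 (0.468 ± 0.129). Cov cells held most VIM (1792 ± 152, rank 91) and KRT7 (1355 ± 96.3), then KRT8 (1133 ± 94.1), KRT18 (792 ± 68.8), KRT19 (221 ± 11.2), CDH2 (80.3 ± 5.54), FN1 (23.03 ± 3.01), ZEB1 (6.17 ± 0.552), CDH1 (4.45 ± 0.345) and SNAI2 (1.89 ± 0.310). No pair of neighbours in either order overlapped between its DMSO libraries. Of the 10 members, 8 stood above 1 FPKM in all 6 Ku libraries and 9 in all 6 Cov libraries; the exceptions were SNAI2 in both lines and CDH1, which stayed under 1 FPKM in every Ku library and was tested because it passed in Cov cells. At 250 nM the order in Ku cells had changed, with KRT19 behind CDH2 and SNAI2 behind CDH1. ZEB1 (highest library 3.42 FPKM) then stood just behind KRT7 (lowest library 3.43 FPKM). In Cov cells at 250 nM, KRT8 stood above KRT7 in the mean, although their libraries overlapped (641 and 768 against 539 and 664 FPKM).

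Both lines carried the transcripts of serous ovarian epithelium. Of 10 markers (PAX8, WT1, SOX17, MUC16, MUC1, EPCAM and the 4 keratins), 9 were above 1 FPKM in every library of each line; MUC16 lay between 0.105 and 0.172 FPKM in Ku cells, and WT1 between 0.131 and 0.741 FPKM in Cov cells. Their sum was 5105 and 4863 FPKM in the Ku DMSO libraries, 4172 and 4270 at 50 nM and 2399 and 2282 at 250 nM, with KRT8 the most abundant throughout. In Cov cells it was 3948 and 4407, 2620 and 2545, and 1891 and 2177 FPKM, with KRT7 the most abundant in DMSO and KRT8 at both doses. PAX8, the lineage factor of this epithelium, stood at 140 and 132 FPKM in DMSO and 11.5 and 13.8 FPKM at 250 nM in Ku cells, and at 120 and 128 and then 16.4 and 17.3 FPKM in Cov cells.

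Markers of other cell types were at or under 9.43 FPKM in every library, apart from MSLN and UPK3B of the mesothelial list. The 5 leukocyte markers summed to 1.999 and 2.18 FPKM in Ku DMSO libraries, 1.99 and 2.29 at 50 nM and 1.49 and 1.49 at 250 nM, with CD14 the most abundant and CD3E at the floor in 6 of 6 libraries. In Cov cells they summed to 1.35 and 1.04, 0.798 and 0.939, and 0.683 and 0.887 FPKM, again with CD14 first and CD3E at the floor in 6 of 6. The 6 fibroblast markers, which share COL1A1 and COL3A1 with the matrix list described last, summed to 12.9 and 10.9, 9.67 and 9.87, and 6.58 and 6.59 FPKM in Ku cells, mostly COL3A1, and to 4.40 and 4.72, 2.93 and 2.79, and 1.94 and 2.10 FPKM in Cov cells, with COL1A1 the most abundant. DCN and LUM, which define fibroblasts, were at the floor in 6 of 6 Cov libraries and at or under 0.194 FPKM in Ku cells, whereas COL3A1 lay between 5.00 and 9.43 FPKM in Ku cells and COL1A1 between 0.876 and 3.20 FPKM in Cov cells. The 4 endothelial markers summed to 13.4 and 11.7, 8.61 and 8.49, and 7.21 and 7.43 FPKM in Ku cells and 9.35 and 10.1, 4.76 and 4.55, and 3.93 and 3.74 FPKM in Cov cells, with CDH5 first and PECAM1 at or under 0.378 FPKM in all 12 libraries. The 4 mesothelial markers summed to 119 and 117, 98.3 and 103, and 67.2 and 70.7 FPKM in Ku cells and 118 and 126, 91.9 and 83.5, and 78.0 and 96.3 FPKM in Cov cells, with MSLN first, while CALB2 lay at or under 0.207 FPKM in all 12 libraries. Any part of these markers in the results was not tested.

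Promoters are shown for FN1, VIM, CDH2 and ZEB1, the mesenchymal members with an entry. On the deposited scale all 4 were called lower in Cov cells at 250 nM, as were all 10 members, beside 84% of active genes. That direction flips with equal-median scaling. In Ku cells at that dose FN1 and ZEB1 were not called, beside 68.6% of active genes called lower. Each window is the 250 bases before the start in RefSeq on build GRCh38.p14, whereas the expression tables were made on hg19. The promoter table used here holds 5 of the 10 members, with 12 starts in all, of which 7 belong to ZEB1 and 2 to CDH2; it holds no entry for KRT7, KRT18, KRT19, CDH1 and SNAI2. Capitals mark the E box CACCTG or its other strand CAGGTG, letters bound by ZEB and SNAI factors, and the GC box GGGCGG or CCGCCC; both strands were read, overlapping matches were counted, and no E box overlapped a GC box in the windows shown. Of 35116 promoters of the same length, 17.5% hold the E box, 42.6% the GC box and 10.7% TATAAA or TTTATA. FN1 (chr2:215436069-215436318, minus strand) has 6 GC boxes, VIM (chr10:17227991-17228240, plus strand) has 1, CDH2 (chr18:28177131-28177380, minus strand) has 1, and ZEB1 is shown at the start with most E boxes (chr10:31318966-31319215, plus strand), with 2 E boxes and 1 GC box. The KRT8 window (chr12:52926470-52926719, minus strand) holds none of these letters and is not shown. The CDH2 start not shown (chr18:28036642-28036891) holds no E box and no GC box but 1 TATAAA or TTTATA. Among the ZEB1 starts not shown, that at chr10:31318167-31318416 holds 1 E box and the rest none. The ZEB1 start at chr10:31319518-31319767 holds 3 GC boxes.
FN1: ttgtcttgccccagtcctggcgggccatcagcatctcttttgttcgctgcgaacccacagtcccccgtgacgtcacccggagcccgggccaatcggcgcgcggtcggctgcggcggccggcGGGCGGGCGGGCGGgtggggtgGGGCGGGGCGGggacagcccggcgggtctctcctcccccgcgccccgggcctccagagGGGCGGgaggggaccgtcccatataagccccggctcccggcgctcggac
VIM: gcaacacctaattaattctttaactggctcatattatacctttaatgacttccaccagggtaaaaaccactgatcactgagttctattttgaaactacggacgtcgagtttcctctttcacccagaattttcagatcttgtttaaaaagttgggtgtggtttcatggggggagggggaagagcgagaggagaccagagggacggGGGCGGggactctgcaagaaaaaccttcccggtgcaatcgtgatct
CDH2: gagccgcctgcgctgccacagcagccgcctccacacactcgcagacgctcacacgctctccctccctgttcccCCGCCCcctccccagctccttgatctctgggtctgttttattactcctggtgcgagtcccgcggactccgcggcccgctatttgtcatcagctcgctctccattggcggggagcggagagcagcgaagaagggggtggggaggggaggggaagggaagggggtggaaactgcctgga
ZEB1: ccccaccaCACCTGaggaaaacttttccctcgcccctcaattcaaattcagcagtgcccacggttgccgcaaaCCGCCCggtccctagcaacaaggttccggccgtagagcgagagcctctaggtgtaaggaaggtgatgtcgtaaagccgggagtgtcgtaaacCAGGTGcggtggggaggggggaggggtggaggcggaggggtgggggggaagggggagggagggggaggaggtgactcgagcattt

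Among the members, the number called lower depended on line and dose, and it flipped or shrank under the other scalings. In Ku cells at 50 nM, limma called 1 of 10 members lower, KRT19, beside 11.3% of active genes, and the count was 0 with either other scaling. Those 1607 active genes became 9 with only the 2 groups compared in the fit and 3 of 23621 genes with no minimum FPKM, and no member was among the calls of either. At 250 nM in Ku cells, 6 of 10 were called lower (KRT8, KRT18, KRT19, CDH2, VIM and SNAI2), beside 68.6% of active genes and 74.9% of those above 1 FPKM in the line. CDH1, under 1 FPKM in every Ku library, was among the members not called. With equal-median scaling 1 was lower (SNAI2) and 4 were higher (KRT7, CDH2, VIM and FN1), beside 1664 and 3853 of 14251 active genes. With median-of-ratios scaling 2 were lower (KRT19 and SNAI2) and the same 4 higher, beside 2708 and 1577. From 50 to 250 nM in Ku cells, 4 of 10 were called lower (KRT8, KRT18, KRT19 and SNAI2) beside 36% of active genes, against 1 lower (SNAI2) and 2 higher (CDH2 and FN1) with equal-median scaling, beside 939 and 943 active genes, and 2 lower (KRT19 and SNAI2) and 0 higher with median-of-ratios scaling, beside 1580 and 198. In Cov cells at 50 nM, 6 of 10 were called lower (KRT7, KRT18, KRT19, CDH2, VIM and FN1) beside 70.5% of active genes, and none in either direction with the other scalings. All 10 were called lower in Cov cells at 250 nM, beside 84% of active genes. With equal-median scaling 0 were lower and 4 higher (KRT8, KRT18, CDH2 and VIM), beside 1613 and 3789 of 14251 active genes. With median-of-ratios scaling 0 were lower and 3 higher (KRT8, KRT18 and VIM), beside 2694 and 1221. From 50 to 250 nM in Cov cells, limma called 0 of 10 beside 24.4% of active genes, although 10 of 10 had an unadjusted p under 0.05 in the lower direction, beside 63.9% of active genes, and the count was also 0 with both other scalings. Both doses of a line were compared with the same DMSO libraries.

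In the median the 10 Ku values were -0.15 (50 nM), -0.76 (250 nM) and -0.63 (250 against 50 nM) on the log2 scale, beside -0.40, -1.11 and -0.62 for all active genes. For Cov cells they were -0.66, -1.22 and -0.54, beside -0.85, -1.31 and -0.41. In Ku cells 7 of 10 members lay above the all-gene median and 3 below it at either dose, and in Cov cells 8 lay above and 2 below. Of those above it in Cov cells at 250 nM, ZEB1 (0.016), SNAI2 (0.038) and CDH2 (0.0465) lay close to the median. The 1 added to each FPKM understates the fall of a low gene such as SNAI2. At 250 against 50 nM, 5 lay above and 5 below in Ku cells, and 4 above and 6 below in Cov cells. The Ku members above the all-gene median included CDH1 at either dose and between the doses, although CDH1 stayed under 1 FPKM in every Ku library. Its distance at 250 nM (0.965) was the largest of the 10 in Ku cells, and the added 1 sets most of the size of its fold change. Counts changed when 1 library was left out, with the lone library assumed to vary like the other groups. The Ku count at 50 nM was 0 without any 1 of the 6 Ku libraries, and the active genes called lower then numbered 6 to 131. For Ku cells at 250 against 50 nM, it was 2 without 50 nM replicate 2 (beside 11.2% of active genes), and 1 without 50 nM replicate 1 (5.9%) or 250 nM replicate 1 (5.6%) or 2 (7.2%). The Cov count at 50 nM was 4 without DMSO replicate 1 (beside 48.4% of active genes) or 50 nM replicate 2 (69.7%), and 1 without DMSO replicate 2 (30.3%) or 50 nM replicate 1 (59.6%). The count at 250 against 50 nM in Cov cells was 2 without 50 nM replicate 1 (beside 27.9% of active genes), when FN1 (-0.97, limma adjusted p = 0.000457) and ZEB1 (-0.81, limma adjusted p = 0.000742) passed. The counts at 250 nM against DMSO were 4 or 5 in Ku cells and 9 in Cov cells whichever library was left out, beside 42.7% to 63.5% and 73.3% to 86.6% of active genes.

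**Figure D1:**
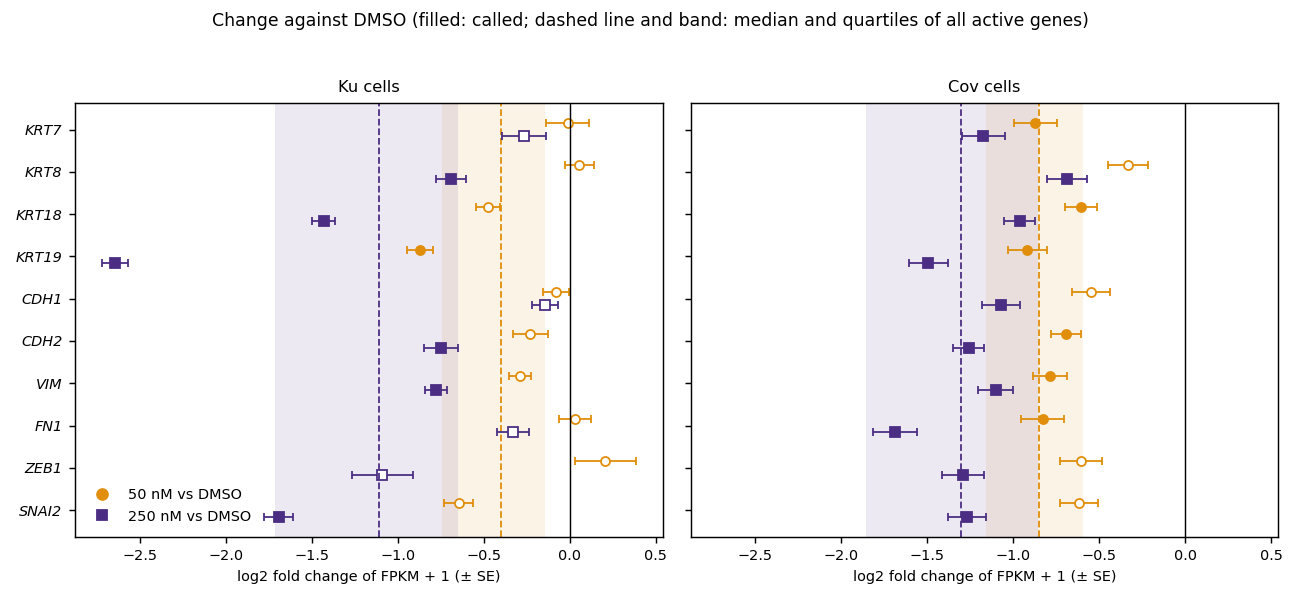
Log2 fold change of FPKM + 1 (x axis, points with SE bars, filled where called) of the 10 members at 50 nM (circles) and 250 nM (squares) THZ1 against DMSO in Ku and Cov cells, with dashed lines and bands for the median and quartiles of all active genes. On the deposited scale the values ran from -2.65 (KRT19, Ku, 250 nM) to 0.21 (ZEB1, Ku, 50 nM); the direction of most members flips to positive with equal-median and median-of-ratios scaling.

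**Figure D2:**
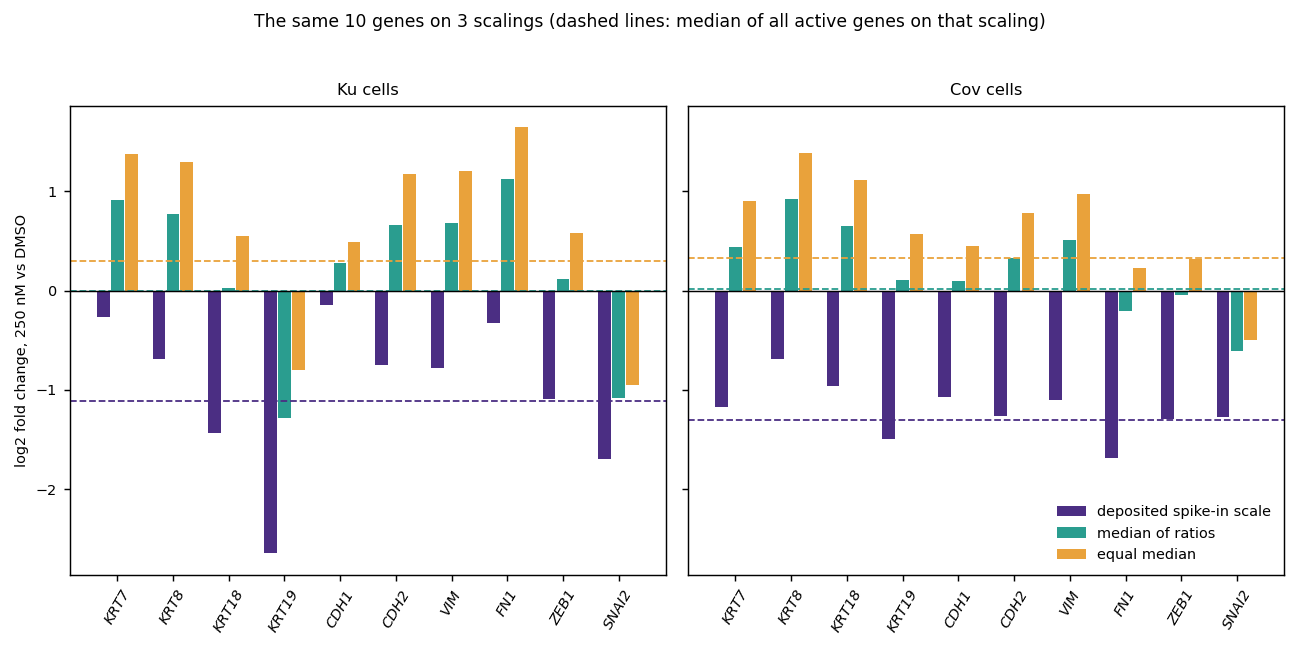
Log2 fold change of FPKM + 1 (y axis, bars) of the 10 members at 250 nM against DMSO on the deposited scale, with median-of-ratios scaling and with equal-median scaling, with dashed lines for the median of all active genes. In Ku cells KRT19 and SNAI2 stayed negative on each scale and the other 8 members flipped to positive, whereas in Cov cells SNAI2 stayed negative, FN1 and ZEB1 flipped with equal-median scaling alone and the other 7 flipped with both.

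KRT7 is a type II keratin of glandular epithelia, including those of Mullerian origin. In Ku cells it stood at 4.68 and 4.54 FPKM in DMSO, 4.35 and 4.78 FPKM at 50 nM and 3.43 and 3.91 FPKM at 250 nM. The 50 nM libraries lay on either side of the DMSO libraries, and both 250 nM libraries lay under the other 4. Neither dose passed the test, with log2 fold changes of -0.013 ± 0.13 (SE) at 50 nM (limma adjusted p = 0.942) and -0.27 at 250 nM (limma adjusted p = 0.0911, lower in 2 of 2 libraries). The value at 50 nM turned to 0.0054 without DMSO replicate 1 and to 0.043 without 50 nM replicate 1, and was -0.030 without DMSO replicate 2 and -0.068 without 50 nM replicate 2. Relative to the all-gene median it was 0.39 at 50 nM and 0.84 at 250 nM, and with equal-median scaling the fold changes were 0.54 and 1.37 and with median-of-ratios scaling 0.42 and 0.91, of which the values at 250 nM were called higher. In Cov cells KRT7 measured 1287 and 1423 FPKM in DMSO, 766 and 712 FPKM at 50 nM and 539 and 664 FPKM at 250 nM. No group overlapped another in Cov cells, and the means at 50 and 250 nM were 54.6% and 44.4% of the DMSO mean. KRT7 fell by 0.87 ± 0.12 (SE) at 50 nM (limma adjusted p = 0.000403, lower in 2 of 2 libraries) and by 1.18 at 250 nM (limma adjusted p = 5.54e-05, lower in 2 of 2), and both values flipped to positive under the other scalings (0.35 and 0.90 with equal medians, 0.16 and 0.44 with median of ratios). The step from 50 to 250 nM was -0.30 (limma adjusted p = 0.0713), or -0.15 without 250 nM replicate 1. Against the all-gene median KRT7 stood at -0.023 and 0.13. Its call at 50 nM was lost without DMSO replicate 1 (limma adjusted p = 0.00108), DMSO replicate 2 (0.00248), 50 nM replicate 1 (0.00114) or 50 nM replicate 2 (0.00206).

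KRT8, the type II partner of KRT18, was the most abundant member in Ku cells, at 2489 and 2375 FPKM in DMSO, 2447 and 2612 FPKM at 50 nM and 1569 and 1447 FPKM at 250 nM. DMSO and 50 nM libraries overlapped, and both 250 nM libraries lay under them. At 50 nM the log2 fold change was 0.056 ± 0.085 (SE; limma adjusted p = 0.603), which is 0.46 above the all-gene median; it was 0.090 and 0.022 without DMSO replicates 1 and 2, and 0.10 and 0.0094 without 50 nM replicates 1 and 2. KRT8 fell by 0.69 at 250 nM (limma adjusted p = 0.000361, lower in 2 of 2 libraries) and by 0.75 from 50 to 250 nM (limma adjusted p = 0.000503), and these values flipped to 1.29 and 0.53 with equal-median scaling and 0.77 and 0.15 with median-of-ratios scaling. Both calls were lost without any 1 of the 6 Ku libraries (limma adjusted p from 0.00138 to 0.00390 at 250 nM against DMSO, and from 0.00159 to 0.00546 against 50 nM). In Cov cells KRT8 measured 1066 and 1199 FPKM in DMSO, 911 and 883 FPKM at 50 nM and 641 and 768 FPKM at 250 nM. The 3 groups did not overlap. The log2 fold change at 50 nM was -0.33 ± 0.12 (SE; limma adjusted p = 0.0289, lower in 2 of 2), the smallest of the 10 members there, and the step from 50 to 250 nM was -0.35 (limma adjusted p = 0.0353), or -0.22 without 250 nM replicate 1. At 250 nM against DMSO, KRT8 fell by 0.69 (limma adjusted p = 0.00084, lower in 2 of 2), which is 0.62 above the all-gene median and flipped to 1.39 and 0.93 under the other scalings, both called higher. That call was lost without any 1 of the 6 Cov libraries (limma adjusted p from 0.00108 to 0.00885).

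KRT18 is the type I partner of KRT8. Its Ku libraries measured 2193 and 2077 FPKM in DMSO, 1568 and 1504 FPKM at 50 nM and 789 and 792 FPKM at 250 nM. The groups were ordered by dose without overlap, at 71.9% and 37.0% of the DMSO mean, whereas KRT8 held 104% and 62.0%. At 50 nM the log2 fold change was -0.47 ± 0.069 (SE), short of the call (limma adjusted p = 0.00252, lower in 2 of 2). KRT18 fell by 1.43 at 250 nM (limma adjusted p = 1.25e-05, lower in 2 of 2) and by 0.96 from 50 to 250 nM (limma adjusted p = 0.000118), while equal-median scaling turned these to 0.55 and 0.32 and median-of-ratios scaling to 0.026 and -0.058. The second of these calls was lost without 50 nM replicate 1 (limma adjusted p = 0.00179), 50 nM replicate 2 (0.00125), 250 nM replicate 1 (0.00149) or 250 nM replicate 2 (0.00137). In Cov cells KRT18 stood at 744 and 841 FPKM in DMSO, 521 and 517 FPKM at 50 nM and 398 and 412 FPKM at 250 nM. Again no groups overlapped, and the means were 65.5% and 51.1% of DMSO. The decrease was called at 50 nM (-0.61 ± 0.093 SE, limma adjusted p = 0.000556, lower in 2 of 2) and at 250 nM (-0.96, limma adjusted p = 3.17e-05, lower in 2 of 2), but the sign flipped with equal medians (0.62 and 1.11) and with median of ratios (0.42 and 0.65). The call at 50 nM was lost without DMSO replicate 2 (limma adjusted p = 0.00189), 50 nM replicate 1 (0.00447), 50 nM replicate 2 (0.00461), 250 nM replicate 1 (0.00156) or 250 nM replicate 2 (0.00156). Between the doses the value was -0.36 (limma adjusted p = 0.013). Relative to the all-gene median, KRT18 lay at -0.075 and -0.32 in Ku cells and at 0.24 and 0.34 in Cov cells.

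KRT19, a small type I keratin of simple and ductal epithelia, had the lowest log2 fold change of the 10 members in Ku cells at 250 nM. It stood at 47.9 and 47.3 FPKM in DMSO, 24.9 and 26.4 FPKM at 50 nM and 6.86 and 6.67 FPKM at 250 nM, with each dose far below the one before. KRT19 fell by 0.87 ± 0.076 (SE) at 50 nM (limma adjusted p = 0.000524, lower in 2 of 2) and by 2.65 at 250 nM (limma adjusted p = 6.52e-06, lower in 2 of 2), and it kept a negative sign with equal-median scaling (-0.18 and -0.80) and median-of-ratios scaling (-0.32 and -1.28). Relative to the all-gene median the value at 250 nM was -1.54, and 6.63% of active genes lay lower. KRT19 also fell by 1.78 from 50 to 250 nM (limma adjusted p = 4.5e-05). Without any 1 of the 6 Ku libraries the call at 50 nM was lost (limma adjusted p from 0.00227 to 0.00457, log2 fold change from -0.91 to -0.83), while those at 250 nM stood in 6 of 6. The Cov libraries measured 213 and 228 FPKM in DMSO, 119 and 114 FPKM at 50 nM and 69.8 and 86.1 FPKM at 250 nM. Groups did not overlap, and the means were 52.7% and 35.3% of DMSO. In Cov cells KRT19 fell by 0.92 ± 0.11 (SE) at 50 nM (limma adjusted p = 0.000196, lower in 2 of 2) and by 1.50 at 250 nM (limma adjusted p = 9.14e-06, lower in 2 of 2), with flips to 0.30 and 0.57 under equal medians and 0.11 and 0.11 under median of ratios. Without DMSO replicate 2 the call at 50 nM was lost (limma adjusted p = 0.00188). The step from 50 to 250 nM was -0.58 (limma adjusted p = 0.00389), and 40.2% of active genes lay lower than KRT19 at 250 nM against DMSO.

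As a share of all FPKM in a library, the 4 keratins together lay between 0.357% and 0.425% in Ku cells and between 0.186% and 0.252% in Cov cells. Their sum was 4735 and 4503 FPKM in Ku DMSO libraries, 4044 and 4147 at 50 nM and 2369 and 2249 at 250 nM, which was 0.384% and 0.367%, 0.395% and 0.425%, and 0.357% and 0.371% of the library. In Cov cells it was 3309 and 3692, 2317 and 2226, and 1648 and 1929 FPKM, or 0.225% and 0.219%, 0.220% and 0.186%, and 0.217% and 0.252%. The shares of DMSO and 250 nM libraries overlapped in Ku cells, and those of Cov libraries lay on both sides of the DMSO values at 250 nM. Both Ku shares at 50 nM lay above those of DMSO, whereas the Cov shares at 50 nM overlapped those of DMSO.

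CDH1 encodes E-cadherin, the adhesion molecule of epithelial junctions. Its Ku values were 0.559 and 0.377 FPKM in DMSO, 0.416 and 0.356 FPKM at 50 nM and 0.291 and 0.364 FPKM at 250 nM, all under 1 FPKM. DMSO and 50 nM overlapped, as did 50 and 250 nM. Log2 fold changes were -0.081 ± 0.074 (SE; limma adjusted p = 0.389) and -0.14 (limma adjusted p = 0.112), and at this level the added 1 sets most of the size. The value at 50 nM turned to 0.0088 without DMSO replicate 1 and was -0.17 without DMSO replicate 2 and -0.050 without 50 nM replicate 2, and that at 250 nM was -0.054 and -0.23 without DMSO replicates 1 and 2. Under equal medians and median of ratios the values were 0.11 and 0.49, and 0.071 and 0.28. In Cov cells CDH1 stood at 4.21 and 4.70 FPKM in DMSO, 2.66 and 2.78 FPKM at 50 nM and 1.79 and 1.40 FPKM at 250 nM. These groups did not overlap, with means at 61.1% and 35.9% of DMSO. The log2 fold change at 50 nM was -0.55 ± 0.11 (SE) and was not called (limma adjusted p = 0.00226, lower in 2 of 2), and the step from 50 to 250 nM was -0.52 (limma adjusted p = 0.00571). CDH1 fell by 1.07 at 250 nM (limma adjusted p = 4.82e-05, lower in 2 of 2), a value 0.24 above the all-gene median that flipped to 0.44 with equal medians and 0.094 with median of ratios.

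CDH2 encodes N-cadherin, found in neural and mesenchymal cells, and it exceeded CDH1 in all 12 libraries. Ku cells held 37.6 and 31.8 FPKM in DMSO, 30.6 and 28.2 FPKM at 50 nM and 20.4 and 19.9 FPKM at 250 nM. The groups came in dose order without overlap, the gap between DMSO and 50 nM being smaller than the spread within DMSO. CDH2 was not called at 50 nM (-0.23 ± 0.099 SE, limma adjusted p = 0.0964; -0.11 and -0.34 without DMSO replicates 1 and 2) and fell by 0.75 at 250 nM (limma adjusted p = 0.0005, lower in 2 of 2), where the sign flipped and the gene was called higher with equal medians (1.17) and median of ratios (0.66). The call at 250 nM was lost without DMSO replicate 1 (limma adjusted p = 0.00161), 50 nM replicate 1 (0.00112), 50 nM replicate 2 (0.00113), 250 nM replicate 1 (0.00395) or 250 nM replicate 2 (0.0045). From 50 to 250 nM the value was -0.52 (limma adjusted p = 0.004). Cov cells held 76.4 and 84.2 FPKM in DMSO, 47.2 and 51.3 FPKM at 50 nM and 33.2 and 32.6 FPKM at 250 nM. No groups overlapped, and the means were 61.3% and 41.0% of DMSO. Here CDH2 fell by 0.69 ± 0.088 (SE) at 50 nM (limma adjusted p = 0.00023, lower in 2 of 2) and by 1.26 at 250 nM (limma adjusted p = 6.41e-06, lower in 2 of 2), with flips to 0.51 and 0.78 under equal medians and 0.32 and 0.32 under median of ratios. Leaving out DMSO replicate 2 (limma adjusted p = 0.00221) or 50 nM replicate 1 (0.00133) ended the call at 50 nM. The step between the doses was -0.57 (limma adjusted p = 0.00142). Relative to the all-gene median the CDH2 values were 0.17 and 0.36 in Ku cells and 0.16 and 0.046 in Cov cells.

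VIM encodes vimentin, the intermediate filament of mesenchymal cells. Ku libraries measured 651 and 600 FPKM in DMSO, 516 and 509 FPKM at 50 nM and 371 and 358 FPKM at 250 nM, each group under the one before. At 50 nM the log2 fold change of -0.29 ± 0.064 (SE) was not called (limma adjusted p = 0.0116, lower in 2 of 2). VIM fell by 0.78 at 250 nM (limma adjusted p = 6.45e-05, lower in 2 of 2), and under equal medians (1.20) and median of ratios (0.68) it flipped and was called higher. The step from 50 to 250 nM passed in p (limma adjusted p = 0.000864) but not in size (-0.49). In Cov cells VIM was the most abundant member, at 1685 and 1900 FPKM in DMSO, 1019 and 1055 FPKM at 50 nM and 808 and 857 FPKM at 250 nM. The groups did not overlap, and most of the difference lay between DMSO and 50 nM (57.8% of the DMSO mean, then 46.4%). It fell by 0.79 ± 0.10 (SE) at 50 nM (limma adjusted p = 0.000236, lower in 2 of 2) and by 1.10 at 250 nM (limma adjusted p = 2.41e-05, lower in 2 of 2), with flips to 0.44 and 0.97 under equal medians and 0.24 and 0.51 under median of ratios. The call at 50 nM was lost without 50 nM replicate 1 (limma adjusted p = 0.00225) or 50 nM replicate 2 (0.00144), and the further step to 250 nM was -0.32 (limma adjusted p = 0.0295). Against the all-gene median VIM stood at 0.11 and 0.33 in Ku cells and at 0.063 and 0.20 in Cov cells.

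FN1 encodes fibronectin, a glycoprotein of the extracellular matrix whose promoter above has most GC boxes. Ku cells held 366 and 305 FPKM in DMSO, 350 and 335 FPKM at 50 nM and 267 and 264 FPKM at 250 nM. The 50 nM libraries lay between the DMSO libraries, and the 250 nM libraries lay under both. The log2 fold change was 0.033 ± 0.093 (SE) at 50 nM (limma adjusted p = 0.783), turned to -0.099 without DMSO replicate 2, and was 0.16 without DMSO replicate 1 and 0.0018 and 0.063 without 50 nM replicates 1 and 2. At 250 nM it was -0.33 (limma adjusted p = 0.0145, lower in 2 of 2; -0.20 without DMSO replicate 1) and from 50 to 250 nM -0.36 (limma adjusted p = 0.0132), neither of them called. Relative to the all-gene median the value at 250 nM was 0.78, and it was called higher with equal medians (1.65) and median of ratios (1.12). Cov cells held 20.9 and 25.2 FPKM in DMSO, 11.4 and 13.6 FPKM at 50 nM and 6.34 and 6.52 FPKM at 250 nM. The groups were separate, and the means were 54.3% and 27.9% of DMSO. FN1 fell by 0.83 ± 0.13 (SE) at 50 nM (limma adjusted p = 0.000528, lower in 2 of 2) and by 1.69 at 250 nM (limma adjusted p = 8.54e-06, lower in 2 of 2), with a flip to 0.32 and 0.22 under equal medians and to 0.14 at 50 nM under median of ratios, which left -0.20 at 250 nM. Its value at 250 nM was -0.38 relative to the all-gene median, the lowest of the 10 members in Cov cells. The call at 50 nM was lost without DMSO replicate 1 (limma adjusted p = 0.00122), DMSO replicate 2 (0.00486) or 50 nM replicate 1 (0.00137). At 250 against 50 nM the value was -0.86 (limma adjusted p = 0.00108), just short of the call, which it passed without 50 nM replicate 1 as given above.

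ZEB1 is a zinc finger repressor of CDH1. In Ku cells it measured 8.99 and 6.79 FPKM in DMSO, 10.1 and 8.30 FPKM at 50 nM and 2.88 and 3.42 FPKM at 250 nM. DMSO and 50 nM overlapped, and both 250 nM libraries lay under the other 4. ZEB1 had the widest error of the members, with a log2 fold change of 0.21 ± 0.18 (SE) at 50 nM (limma adjusted p = 0.358), which was 0.39 and 0.028 without DMSO replicates 1 and 2, and 0.077 and 0.34 without 50 nM replicates 1 and 2. At 250 nM the value of -1.09 just missed the call (limma adjusted p = 0.00133, lower in 2 of 2), as did that of -1.30 from 50 to 250 nM (limma adjusted p = 0.00103). The first of these lay 0.018 from the all-gene median and flipped to 0.57 under equal medians and 0.12 under median of ratios. Cov libraries measured 5.78 and 6.56 FPKM in DMSO, 3.30 and 4.12 FPKM at 50 nM and 1.99 and 1.86 FPKM at 250 nM. These groups did not overlap, at 60.1% and 31.2% of the DMSO mean. The log2 fold change at 50 nM was -0.61 ± 0.12 (SE) and was not called (limma adjusted p = 0.00216, lower in 2 of 2), although it was -0.74 and called without 50 nM replicate 2 (limma adjusted p = 0.00057). ZEB1 fell by 1.29 at 250 nM (limma adjusted p = 2.89e-05, lower in 2 of 2), with a flip to 0.32 under equal medians and none under median of ratios (-0.048). The step between the doses was -0.68 (limma adjusted p = 0.00264).

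SNAI2, also called SLUG, is a second zinc finger repressor of CDH1 and kept the smallest share of its DMSO level in both lines. The Ku libraries measured 2.77 and 2.77 FPKM in DMSO, 1.53 and 1.30 FPKM at 50 nM and 0.151 and 0.181 FPKM at 250 nM, where the floor was 0.0783 and 0.0822 FPKM. The groups were separate, at 51.1% and 5.99% of the DMSO mean. At 50 nM the log2 fold change was -0.64 ± 0.084 (SE), short of the call (limma adjusted p = 0.00173, lower in 2 of 2). SNAI2 fell by 1.69 at 250 nM (limma adjusted p = 1.33e-05, lower in 2 of 2) and by 1.05 from 50 to 250 nM (limma adjusted p = 0.000156), and the value at 250 nM against DMSO remained negative and called lower with equal medians (-0.96) and median of ratios (-1.09). The second call was lost without 50 nM replicate 1 (limma adjusted p = 0.00134), 250 nM replicate 1 (0.0024) or 250 nM replicate 2 (0.00208). In Cov cells SNAI2 measured 1.67 and 2.11 FPKM in DMSO, 0.931 and 0.823 FPKM at 50 nM and 0.290 and 0.107 FPKM at 250 nM, the last of these beside a floor of 0.105 FPKM. The groups were separate, at 46.4% and 10.5% of the DMSO mean. The second share averages libraries at 15.4% and 5.65%, so it depends on a value beside the floor. At 50 nM the value of -0.62 ± 0.11 (SE) was not called (limma adjusted p = 0.00119, lower in 2 of 2) but was called without 250 nM replicate 1 (limma adjusted p = 0.000876) or 250 nM replicate 2 (0.000891). It fell by 1.27 at 250 nM (limma adjusted p = 1.85e-05, lower in 2 of 2) and remained negative, without a call, under equal medians (-0.50) and median of ratios (-0.61). The step between the doses was -0.65 (limma adjusted p = 0.00206). On the log2(FPKM + 1) scale SNAI2 lay -0.59 from the all-gene median in Ku cells at 250 nM and 0.038 from it in Cov cells.

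**Figure D3:**
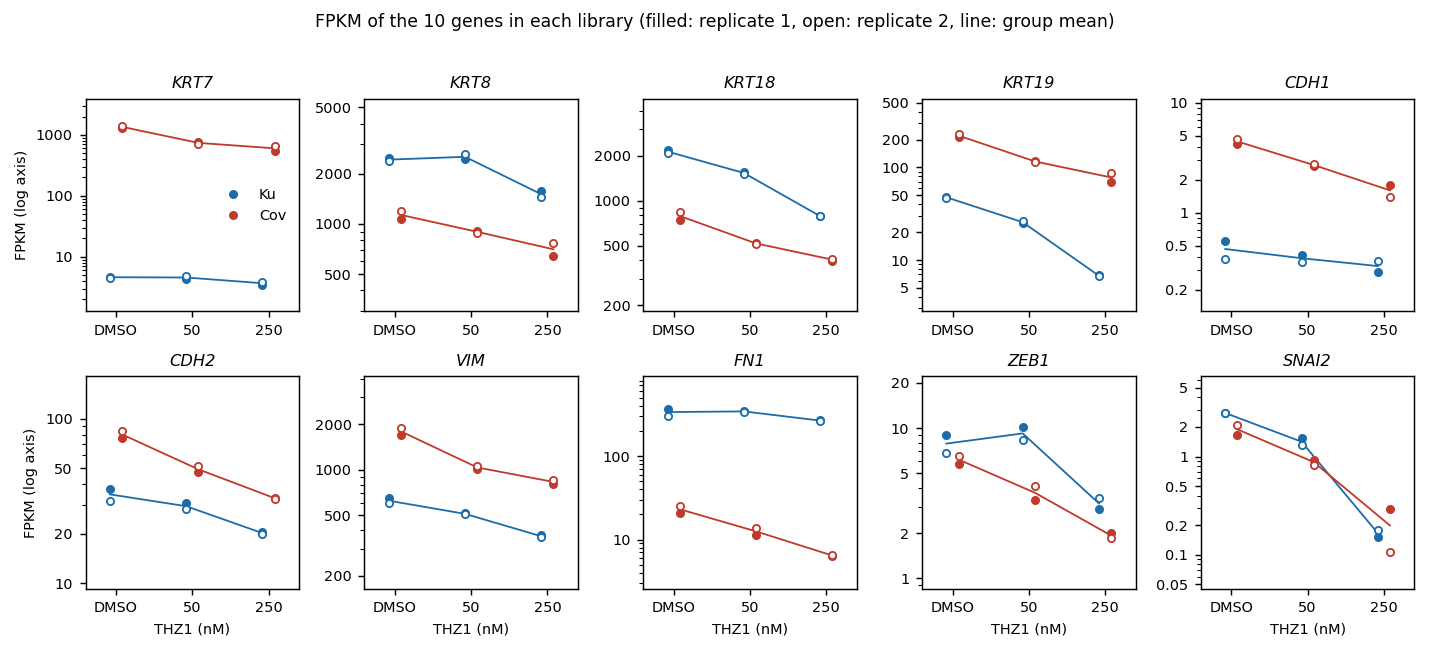
FPKM (y axis, log scale) of each member by THZ1 dose (x axis, nM) in Ku (blue) and Cov (red) cells on the deposited scale, with filled and open points for replicates 1 and 2 and lines through group means. In Ku cells the mean of SNAI2 went from 2.77 to 0.166 FPKM, a direction that stayed under both other scalings, and KRT8 lay between 1447 and 1569 FPKM at 250 nM against 2375 and 2489 FPKM in DMSO, a direction that flips under both.

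Some members lie beside or across other genes. The libraries were made with a kit that keeps strand, but whether the counting used it is not given in the sources used here, so the values of those members are uncertain where reads could be shared. On GRCh37 annotation, KRT8 and KRT18 lie on opposite strands of chromosome 12 with 1084 bases of shared span and 0 shared bases between exons of the canonical transcripts. ZEB1 shares 1953 bases of span with ZEB1-AS1 on the opposite strand and 0 canonical exon bases, VIM shares 1778 with VIM-AS1 and 641 of them in exons, and KRT7 shares 2401 with KRT7-AS and 221 of them in exons. ZEB1-AS1 measured 3.25 and 2.17 FPKM in Ku DMSO libraries, 0.684 and 0.705 at 50 nM and 0.350 and 0.453 at 250 nM. Both 50 nM libraries lay under those of DMSO without a call (-1.12, limma adjusted p = 0.00167), while ZEB1 overlapped its DMSO values. It was called lower in Ku cells at 250 nM (-1.39, limma adjusted p = 0.000163, lower in 2 of 2) and in Cov cells at 50 nM (-0.70, limma adjusted p = 0.000154, lower in 2 of 2) and 250 nM (-0.73, limma adjusted p = 7.19e-05, lower in 2 of 2), and was called in neither direction under the other scalings. Pseudogenes of KRT8, KRT18 and KRT19 stayed low, with KRT18P55 at or under 0.862 FPKM, KRT8P41 at or under 0.454 FPKM and KRT19P2 at the floor in all 12 libraries. VIM-AS1 and KRT7-AS were not analysed here.

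Ratios of members inside a library are not moved by a factor common to that library, apart from the 1 added to each FPKM. The log2 ratio of KRT8 to KRT18 in Ku cells was 0.18 and 0.19 in DMSO, 0.64 and 0.80 at 50 nM and 0.99 and 0.87 at 250 nM, a difference from DMSO of 0.53 ± 0.11 (SD) and 0.74 ± 0.086. In Cov cells it was 0.52 and 0.51, then 0.81 and 0.77, then 0.69 and 0.90, a difference of 0.27 ± 0.026 and 0.28 ± 0.15. The second of these was 0.38 without 250 nM replicate 1 and 0.17 without 250 nM replicate 2. Both lines thus held more KRT8 per KRT18 after THZ1, with no overlap with DMSO at either dose. The ratio of KRT7 to KRT19 in Ku cells was -3.11 and -3.12 in DMSO, -2.27 and -2.24 at 50 nM and -0.83 and -0.64 at 250 nM, a difference of 2.38 at the higher dose. In Cov cells that ratio was 2.59 and 2.63, 2.68 and 2.64, and 2.93 and 2.93, a difference of 0.32 at the higher dose.

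The ratio of CDH1 to CDH2 stayed far below zero. In Ku cells it was -4.63 and -4.57 in DMSO, -4.48 and -4.43 at 50 nM and -4.05 and -3.94 at 250 nM, but with CDH1 under 1 FPKM the difference of 0.61 at 250 nM rests largely on the added 1 and was 0.38 with 0.1 added instead. In Cov cells it was -3.89 and -3.90, -3.72 and -3.79, and -3.61 and -3.81, and the difference of 0.19 ± 0.14 (SD) at 250 nM turned to -0.15 with 0.1 added and was 0.092 without 250 nM replicate 1. The ratio of VIM to KRT18 was -1.75 and -1.79 in Ku DMSO libraries, -1.60 and -1.56 at 50 nM and -1.09 and -1.14 at 250 nM, so VIM lost less than KRT18. In Cov cells the same ratio was 1.18 and 1.18, 0.97 and 1.03, and 1.02 and 1.06, so VIM lost slightly more. The differences at 250 nM were 0.65 ± 0.047 (SD) in Ku cells and -0.14 ± 0.025 in Cov cells.

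For FN1 to CDH1 the ratio in Ku cells was 7.88 and 7.80 in DMSO, 7.95 and 7.95 at 50 nM and 7.70 and 7.60 at 250 nM, and the difference of 0.11 at 50 nM was 0.24 with 0.1 added and 0.072 without DMSO replicate 2, while that of -0.19 at 250 nM turned to 0.064 with 0.1 added. In Cov cells it was 2.07 and 2.20, 1.76 and 1.95, and 1.39 and 1.65, a difference of -0.28 ± 0.16 (SD) at 50 nM, which was -0.19 without 50 nM replicate 1, and of -0.62 at 250 nM, which was -0.39 with 0.1 added. ZEB1 to CDH1 was 2.68 and 2.50 in Ku DMSO libraries, 2.98 and 2.78 at 50 nM and 1.59 and 1.70 at 250 nM, and the difference of 0.29 ± 0.19 (SD) at 50 nM was 0.19 without 50 nM replicate 1. In Cov cells it was 0.38 and 0.41, 0.23 and 0.44, and 0.099 and 0.25, the only ratio whose 50 nM libraries overlapped those of DMSO; its difference of -0.059 at 50 nM turned to 0.046 without 50 nM replicate 1, and that of -0.22 at 250 nM was -0.14 without 250 nM replicate 1. No test was run on these ratios.

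**Figure D4:**
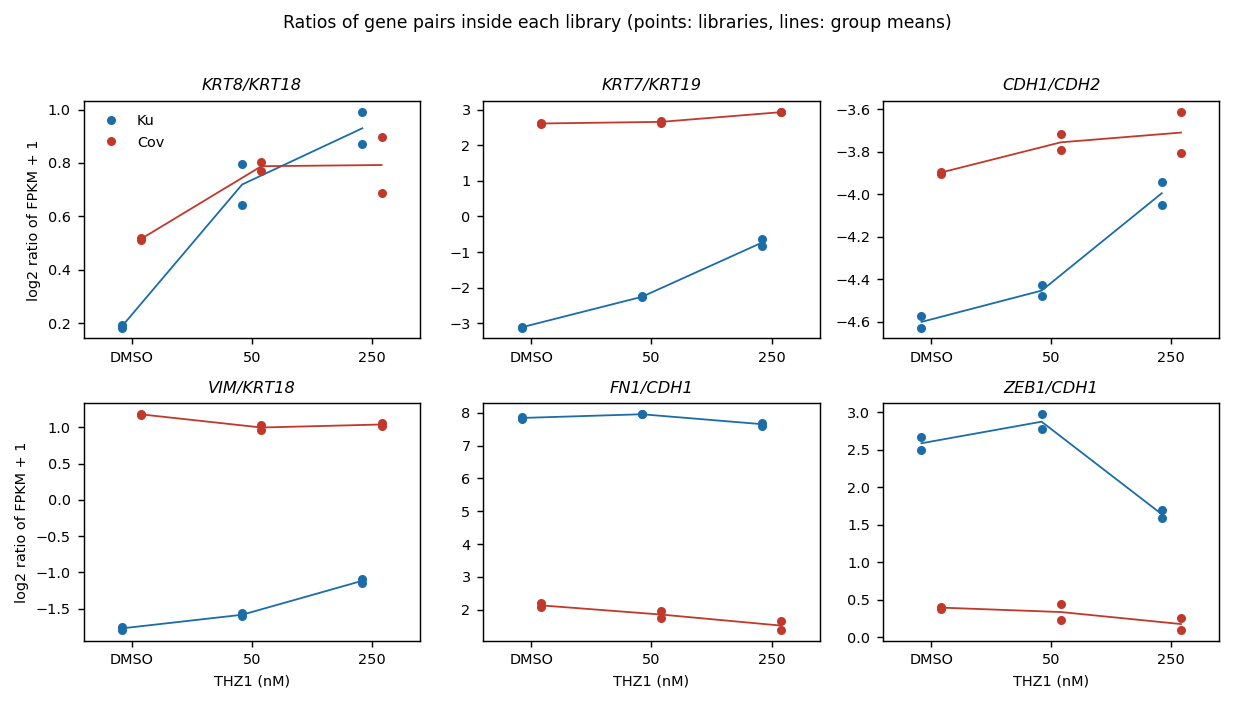
Log2 ratio of (FPKM + 1) for 6 pairs of members in every library (points) by THZ1 dose in Ku and Cov cells. KRT8/KRT18 was higher in all treated libraries of both lines (0.64 to 0.99 against 0.18 and 0.19 in Ku DMSO libraries), and these ratios do not flip with another scaling common to a library, apart from the added 1.

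The genes whose profile over the 8 treated libraries lay nearest to each member were found by Euclidean distance of log2(FPKM + 1) relative to the DMSO mean of the line, for the 9 members above 1 FPKM in both lines. For the keratins these were USP43 (0.31) and DIRAS1 (0.32) for KRT7, ADAM15 (0.11) and OAZ1 (0.22) for KRT8, PIK3R2 (0.19) and MPG (0.27) for KRT18, and FAM207A (0.25) and MIIP (0.32) for KRT19. CDH2 lay nearest to CCT5 (0.13) and DYNC1I2 (0.14), VIM to KDELR1 (0.12) and MBTPS1 (0.12), and FN1 to DLX5 (0.34) and TMEM200B (0.35). ZEB1 lay nearest to MLL3 (0.25) and RAB11FIP1 (0.27), and SNAI2 to SNX15 (0.33) and NAB1 (0.34). No member was among the 2 nearest genes of another.

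Of 15 other keratins, 12 were tested, and in Ku cells limma called 1 lower at 50 nM (8.33%) and 4 at 250 nM (33.3%, median log2 fold change -0.54 at 250 nM), in Cov cells 5 (41.7%) and 7 (58.3%, -0.70), and none higher, beside 11.3%, 68.6%, 70.5% and 84% of active genes. At 250 nM equal-median scaling gave 0 lower and 2 higher in Ku cells (beside 1664 and 3853 of 14251 active genes) and 0 and 3 in Cov cells (1613 and 3789). Median-of-ratios scaling gave 0 and 0 (2708 and 1577), and 0 and 1 (2694 and 1221). On the deposited scale the keratin calls at 250 nM were all among those above 1 FPKM in the line, 4 of 9 (44.4%, median -0.80) in Ku cells and 7 of 8 (87.5%, -1.12) in Cov cells, beside 74.9% and 88.7% of the active genes above 1 FPKM in the line, whose medians were -1.20 and -1.36. KRT80, a type II keratin, had the largest change in both lines, from 20.3 ± 1.56 FPKM in DMSO to 5.95 ± 0.120 at 250 nM in Ku cells (fell by 1.61) and from 118 ± 5.48 to 33.6 ± 2.64 FPKM in Cov cells (fell by 1.78). KRT23 in Ku cells (fell by 1.60) and KRT16 in Cov cells (fell by 1.68) were next. The smallest were KRT5 (-0.23) and KRT81 (-0.30) in Ku cells, not called, and KRT15 (fell by 0.57) and KRT14 (-0.68, not called) in Cov cells.

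Of 24 genes of epithelial junctions, all tested, in Ku cells 0 were called lower at 50 nM and 17 at 250 nM (70.8%, median -1.16) and in Cov cells 20 (83.3%) and 23 (95.8%, -1.30), beside 11.3%, 68.6%, 70.5% and 84% of active genes. At 250 nM equal-median scaling gave 0 lower and 8 higher in Ku cells (beside 1664 and 3853 of 14251 active genes) and 1 and 6 in Cov cells (1613 and 3789). Median-of-ratios scaling gave 1 and 3 (2708 and 1577), and 3 and 0 (2694 and 1221). Of the junction genes above 1 FPKM in the line, 17 of 21 (81.0%) were called lower in Ku cells on the deposited scale and 23 of 24 in Cov cells, beside 74.9% and 88.7% of active genes. PKP2 (fell by 2.13), a plakophilin of desmosomes, and CLDN3 (fell by 2.06), a claudin of tight junctions, had the largest changes in Ku cells, and CTNNA1 (fell by 0.59) and DSG2 (-0.62, not called) the smallest. In Cov cells TJP1, a scaffold of tight junctions, went from 51.8 ± 5.06 to 9.59 ± 0.519 FPKM (fell by 2.32) and CLDN1 from 173 ± 14.5 to 37.7 ± 0.549 FPKM (fell by 2.17), whereas CGN (-0.48, not called) and TJP3 (fell by 0.59) moved least. Of 15 epithelial regulators, 11 were tested, in Ku cells with 1 lower at 50 nM (9.09%) and 5 at 250 nM (45.5%, -0.78) and in Cov cells with 8 (72.7%) and 11 (100%, -1.41), beside the same shares of active genes. Under either other scaling 1 was lower and 1 higher in Ku cells and 4 and 1 in Cov cells at 250 nM, beside the counts of active genes given above for those scalings. In Ku cells only 7 of the 11 were above 1 FPKM, with 5 of them called (71.4%, beside 74.9% of active genes) and a median of -1.52 on the deposited scale. KLF5, a zinc finger factor of epithelia, fell by 3.37 in Ku cells (59.4 ± 2.93 to 4.88 ± 0.821 FPKM) and by 3.48 in Cov cells (96.7 ± 5.00 to 7.77 ± 0.199 FPKM). EHF in Ku cells (fell by 1.89) and ELF3 in Cov cells (fell by 3.06), both ETS factors of epithelia, followed. SPINT2 (-0.39, not called) and SPINT1 (-0.78, not called) in Ku cells and GRHL1 (fell by 0.52) and SPINT2 (fell by 0.74) in Cov cells, 3 genes of protease inhibition or epithelial regulation, had the smallest values.

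Of 12 mesenchymal regulators beside ZEB1 and SNAI2, 9 were tested, in Ku cells with 1 called lower at 50 nM (11.1%) and 7 at 250 nM (77.8%, median -1.60) and in Cov cells with 4 (44.4%) and 8 (88.9%, -1.39), beside 11.3%, 68.6%, 70.5% and 84% of active genes. At 250 nM equal-median scaling gave 4 lower and 0 higher in Ku cells (beside 1664 and 3853 of 14251 active genes) and 1 and 1 in Cov cells (1613 and 3789). Median-of-ratios scaling gave 4 and 0 (2708 and 1577), and 1 and 0 (2694 and 1221). Among the regulators above 1 FPKM in the line, 7 of 8 (87.5%) were called lower in Ku cells and 7 of 7 in Cov cells, with medians of -2.24 and -1.48 on the deposited scale, beside 74.9% and 88.7% of active genes. FOXC1 fell by 3.22 in Ku cells (21.5 ± 2.35 to 1.42 ± 0.220 FPKM) and TWIST1 by 3.01 (10.6 ± 0.635 to 0.436 ± 0.0792 FPKM), both developmental transcription factors. In Cov cells TWIST1 fell by 2.77 (21.4 ± 0.585 to 2.28 ± 0.264 FPKM) and FOXC2 by 1.88. ZEB2 (fell by 0.90) and TWIST2 (-0.998, not called) in Ku cells and SOX9 (fell by 0.94) and TCF3 (fell by 1.01) in Cov cells had the smallest changes.

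Of 29 genes of mesenchymal structure and matrix, 28 were tested, in Ku cells with 2 called lower at 50 nM (7.14%) and 12 at 250 nM (42.9%, median -0.67) and in Cov cells with 20 (71.4%) and 23 (82.1%, -1.05), beside 11.3%, 68.6%, 70.5% and 84% of active genes. At 250 nM equal-median scaling gave 0 lower and 16 higher in Ku cells (beside 1664 and 3853 of 14251 active genes) and 2 and 14 in Cov cells (1613 and 3789). Median-of-ratios scaling gave 0 and 6 (2708 and 1577), and 4 and 5 (2694 and 1221). Counted above 1 FPKM in the line, the matrix genes called lower on the deposited scale were 12 of 23 (52.2%) in Ku cells and 23 of 25 (92%) in Cov cells, beside 74.9% and 88.7% of active genes, with medians of -0.77 and -1.15. S100A4, a calcium-binding protein, was the most abundant of those named, with 8166 ± 621 FPKM in DMSO and 6768 ± 645 FPKM at 250 nM in Ku cells (-0.27, not called) and 6537 ± 711 and 4028 ± 25.7 FPKM in Cov cells (-0.69, not called). LOXL2 in Ku cells (-0.39) and POSTN in Cov cells (-0.49) were not called either. THBS1, a matricellular glycoprotein, fell by 1.89 in Ku cells and by 2.95 in Cov cells, and CDH6 fell by 1.86 in Ku cells (239 ± 21.7 to 65.1 ± 2.25 FPKM). Of 9 partners of intermediate filaments, 8 were tested, in Ku cells with 0 lower at 50 nM and 7 at 250 nM (87.5%, -1.24) and in Cov cells with 6 (75%) and 8 (100%, -1.11), beside the same shares of active genes. With equal-median scaling 0 were lower and 3 higher in each line at 250 nM, and with median-of-ratios scaling 0 and 0, beside the counts of active genes given above for those scalings. Of these partners, 7 of 7 above 1 FPKM in Ku cells and 8 of 8 in Cov cells were called, beside 74.9% and 88.7% of active genes. LMNB1, a nuclear lamin, fell by 1.57 in Ku cells and by 2.17 in Cov cells, followed by PPL in Ku cells (fell by 1.51) and DSP in Cov cells (fell by 1.68). LMNA (fell by 0.86) and EPPK1 (fell by 0.95) in Ku cells and EVPL (fell by 0.94) and LMNA (fell by 0.96) in Cov cells moved least. DSP stands in both the junction and the filament list.

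At 50 nM no gene of these lists was called under equal-median scaling, and under median-of-ratios scaling limma called 1 other keratin and 1 epithelial regulator lower and 1 filament partner higher in Ku cells, beside 388 and 74 active genes, and 1 epithelial regulator lower in Cov cells, beside 110 lower. Several list counts also moved by over 1.5 times when 1 library was left out, as did the count of all active genes in part of these fits. In Ku cells at 50 nM, the counts of other keratins, epithelial regulators, mesenchymal regulators and matrix genes were 0 without any 1 of the 6 libraries, beside 6 to 131 active genes called lower. In Ku cells at 250 nM, other keratins numbered 2 without DMSO replicate 1, 250 nM replicate 1 or 250 nM replicate 2, matrix genes 7 without 250 nM replicate 1 and 5 without 250 nM replicate 2, junction genes 10 and epithelial regulators 3 without 250 nM replicate 1, and ZEB1-AS1 lost its call without either 250 nM library; active genes called lower were 51.2% without DMSO replicate 1, 42.7% without 250 nM replicate 1 and 44.3% without 250 nM replicate 2. In Cov cells at 50 nM, leaving out DMSO replicate 1 gave 2 other keratins, 12 junction genes, 1 mesenchymal regulator and 2 filament partners, and leaving out DMSO replicate 2 gave 2, 7, 1 and 1 of these, with 3 epithelial regulators and 5 matrix genes, beside 48.4% and 30.3% of active genes.

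**Figure D5:**
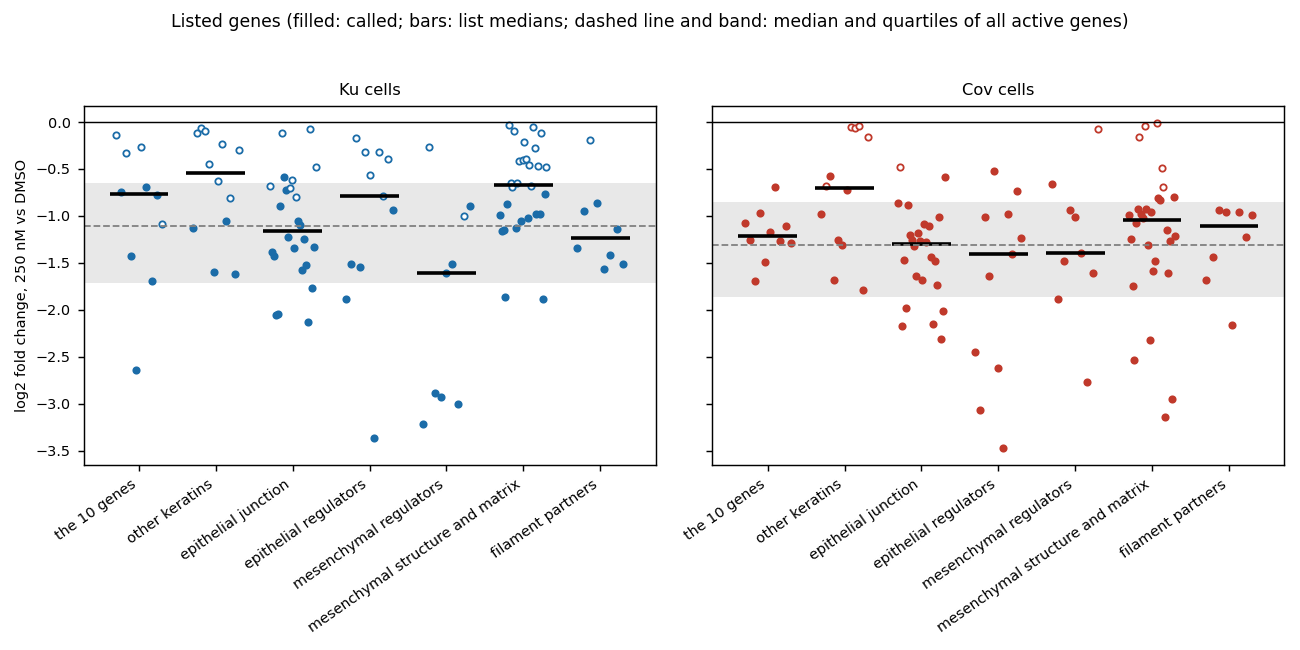
Log2 fold change of FPKM + 1 at 250 nM THZ1 against DMSO (y axis) for the members and the tested genes of each list in Ku and Cov cells on the deposited scale, with filled points for called genes, bars for list medians and a dashed line and band for the median and quartiles of all active genes. Junction genes lay around -1.16 (Ku) and -1.30 (Cov) in the median, with 17 and 23 of 24 called lower, beside 68.6% and 84% of active genes. This flips with equal-median scaling to 8 and 6 higher against 0 and 1 lower, beside 3853 and 3789 active genes higher and 1664 and 1613 lower. With median-of-ratios scaling 3 and 0 were higher and 1 and 3 lower, beside 1577 and 1221 active genes higher and 2708 and 2694 lower.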

How the data were processed

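The values are the FPKM deposited by the authors, 1 table for each line with 23713 entries, normalized to ERCC spike-ins per the labels. The submitters' processing notes name HISAT, Cufflinks, Cuffnorm and hg19, with no versions. Depth is unknown, since FPKM of this kind hold no counts. The 10 members and all lists were chosen with earlier results of these data known. From each list and line, the text names up to 2 active genes above 1 FPKM in that line among those with the largest and 2 with the smallest change at 250 nM, and any called higher, of which there were none on the deposited scale.

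Genes above 1 FPKM in at least 1 of 12 libraries were fitted in each line (3 groups of 2 libraries) with limma 3.58.1 in R 4.3.3 on log2(FPKM + 1), using lmFit and eBayes with trend, two-sided, and Benjamini-Hochberg adjustment over 14251 active genes. The lists were other keratins, epithelial junction, epithelial regulators, mesenchymal regulators, mesenchymal structure and matrix, filament partners, neighbours that could share reads, and markers of 5 cell types. The alternatives were a pseudocount of 0.1, other filters and thresholds, equal-median and median-of-ratios scaling, fits of only the groups compared, no trend, a replicate block, and leaving out each library. The fitting script was tested on simulated data. Tables and figures were made with Python 3.11.15, pandas 2.3.3, numpy 2.4.6 and matplotlib 3.10.9.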

Additional observations from a re-analysis of the deposited data

Results flagged for a closer look

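A few results went one way in both Ku libraries of a dose and the other way in both Cov libraries of that dose, judged on log2(FPKM + 1) against the DMSO mean of the line. None of these differences between the lines was tested. For the members at 50 nM these were KRT8 (log2 fold change 0.056 in Ku cells and -0.33 in Cov cells), FN1 (0.033 and -0.83) and ZEB1 (0.21 and -0.61), although in Ku cells the 50 nM libraries of all 3 genes overlapped those of DMSO. For FN1 in Ku cells, 1 of these libraries lay under the DMSO mean when taken in FPKM (335 against 336), and the value turned to -0.099 without DMSO replicate 2. With 1 library left out, KRT8 in Ku cells lay between 0.0094 and 0.10 and ZEB1 between 0.028 and 0.39. None of the 3 stood above DMSO at 250 nM in Ku cells (-0.69, -0.33 and -1.09). Their opposite signs hold on the deposited scale, since at 50 nM in Cov cells KRT8 (0.89 and 0.70), FN1 (0.32 and 0.14) and ZEB1 (0.39 and 0.23) were positive with equal-median and median-of-ratios scaling. Among the ratios inside a library, VIM to KRT18 differed from DMSO by 0.19 in Ku cells and -0.18 in Cov cells at 50 nM and by 0.65 and -0.14 at 250 nM, and FN1 to CDH1 differed by 0.11 and -0.28 at 50 nM, with 0.24 in Ku cells when 0.1 was added in place of 1. When 1 library was left out, the values of FN1 to CDH1 lay between 0.072 and 0.16 in Ku cells and between -0.37 and -0.19 in Cov cells. Of the tested list genes, only those named in the report were compared in this way. At 50 nM the log2 fold changes were 0.16 and -1.30 for ELF3, 0.61 and -0.93 for EPPK1 and 0.11 and -0.42 for LMNA. Those of SPINT2 were 0.025 and -0.50, and those of MSLN, a mesothelial marker, 0.072 and -0.43. None of these Ku values was called. In Cov cells the all-gene median at 50 nM was -0.85, so LMNA, SPINT2 and MSLN fell less than it, and ELF3 and EPPK1 fell more. These signs are those of the deposited scale, and the values of these genes under the other scalings are not given here.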

How the results depend on the processing

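Each result was recomputed under the alternatives listed in the processing notes. The direction of the members' fold changes depended on the scaling, and 87 of the values turned positive under a scaling that brings the median of all active genes to about zero or above it, which follows from how those scalings are built. In Ku cells at 50 nM against DMSO, the sign turned for KRT7 0.54, KRT18 0.23, CDH1 0.11, CDH2 0.45 and VIM 0.42 with equal-median scaling, and for KRT7 0.42, KRT18 0.084, CDH1 0.071, CDH2 0.31 and VIM 0.27 with median-of-ratios scaling. In Ku cells at 250 nM against DMSO, the sign turned for KRT7 1.37, KRT8 1.29, KRT18 0.55, CDH1 0.49, CDH2 1.17, VIM 1.20, FN1 1.65 and ZEB1 0.57 with equal-median scaling, and for KRT7 0.91, KRT8 0.77, KRT18 0.026, CDH1 0.28, CDH2 0.66, VIM 0.68, FN1 1.12 and ZEB1 0.12 with median-of-ratios scaling. In Ku cells at 250 nM against 50 nM, the sign turned for KRT7 0.83, KRT8 0.53, KRT18 0.32, CDH1 0.37, CDH2 0.71, VIM 0.78 and FN1 0.91 with equal-median scaling, and for KRT7 0.49, KRT8 0.15, CDH1 0.20, CDH2 0.35, VIM 0.41 and FN1 0.53 with median-of-ratios scaling. In Cov cells at 50 nM against DMSO, the sign turned for KRT7 0.35, KRT8 0.89, KRT18 0.62, KRT19 0.30, CDH1 0.38, CDH2 0.51, VIM 0.44, FN1 0.32, ZEB1 0.39 and SNAI2 0.066 with equal-median scaling, and for KRT7 0.16, KRT8 0.70, KRT18 0.42, KRT19 0.11, CDH1 0.23, CDH2 0.32, VIM 0.24, FN1 0.14 and ZEB1 0.23 with median-of-ratios scaling. In Cov cells at 250 nM against DMSO, the sign turned for KRT7 0.90, KRT8 1.39, KRT18 1.11, KRT19 0.57, CDH1 0.44, CDH2 0.78, VIM 0.97, FN1 0.22 and ZEB1 0.32 with equal-median scaling, and for KRT7 0.44, KRT8 0.93, KRT18 0.65, KRT19 0.11, CDH1 0.094, CDH2 0.32 and VIM 0.51 with median-of-ratios scaling. In Cov cells at 250 nM against 50 nM, the sign turned for KRT7 0.55, KRT8 0.50, KRT18 0.49, KRT19 0.27, CDH1 0.059, CDH2 0.27 and VIM 0.53 with equal-median scaling, and for KRT7 0.28, KRT8 0.23, KRT18 0.23, KRT19 0.0019, CDH2 0.0033 and VIM 0.27 with median-of-ratios scaling. Under those scalings the counts of members called at 50 nM were 0 in both lines. From 50 to 250 nM in Ku cells, median-of-ratios scaling gave 2 lower and 0 higher, beside 1580 and 198 active genes. For Cov cells at 250 nM, equal-median scaling gave 0 lower and 4 higher, beside 1613 and 3789 active genes. Median-of-ratios scaling gave 0 lower and 3 higher there, beside 2694 and 1221. With no minimum FPKM, which brings many genes at the floor into the fit, the counts were 0 at 50 nM in Ku cells, 2 from 50 to 250 nM in Ku cells and 2 at 50 nM in Cov cells, beside 3, 1901 and 8286 of 23621 genes called lower. Only the 2 groups compared in the fit gave 0 at 50 nM in Ku cells, beside 9 of 14251 active genes, where fewer libraries set the spread. An adjusted p under 0.05 gave 2 at 50 nM in Ku cells and 6 from 50 to 250 nM in Cov cells, beside 5734 and 5909 of 14251 active genes called lower. A log2 fold change beyond 1 left 0 at 50 nM, 3 at 250 nM and 2 from 50 to 250 nM in Ku cells, and 0 at 50 nM in Cov cells, beside 1228, 7623, 3598 and 5054 active genes called lower. From 50 to 250 nM in Cov cells the count was 2 with a pseudocount of 0.1, 1 with FPKM above 10 and 1 with a group mean above 1 FPKM, beside 4212 of 14251, 3395 of 9384 and 3595 of 14023 genes called lower; the cause was not tested. Leaving out 1 library gave counts from 0 to 0 (Ku, 50 nM), 4 to 5 (Ku, 250 nM), 1 to 3 (Ku, 250 against 50 nM), 1 to 6 (Cov, 50 nM), 9 to 9 (Cov, 250 nM) and 0 to 2 (Cov, 250 against 50 nM), and the lone library of a group was assumed to vary like the others. It also turned the sign in Ku cells at 50 nM for KRT7 (-0.068 to 0.043), CDH1 (-0.17 to 0.0088) and FN1 (-0.099 to 0.16). A pseudocount of 0.1 in the ratios moved CDH1/CDH2 in Ku cells to 0.025 (50 nM) and 0.38 (250 nM) and in Cov cells to 0.014 and -0.15, and FN1/CDH1 in Ku cells to 0.24 and 0.064 and in Cov cells at 250 nM to -0.39. Only the added value differed between these ratios and those above. CDH1 lay under 1 FPKM in Ku cells, and its mean in Cov cells was 4.45 FPKM in DMSO and 1.60 FPKM at 250 nM. When 1 library was left out, the change of ZEB1/CDH1 in Cov cells at 50 nM lay between -0.16 and 0.046, and that of KRT8/KRT18 in Cov cells at 250 nM between 0.17 and 0.38. With the replicate number as a replicate block, limma called 1, 6 and 4 members in Ku cells (50 nM, 250 nM, 250 against 50 nM) and 4, 9 and 0 in Cov cells, beside 989, 9485 and 4952 and then 7266, 11202 and 1130 active genes called lower, and in Cov cells KRT7 and KRT18 at 50 nM and KRT8 at 250 nM lost their calls. Gene by gene, libraries with the same number did not deviate together (pairing correlations of 0.0003, -0.0077 and -0.0087 in Ku cells and 0.028, -0.070 and -0.051 in Cov cells). These correlations run across genes and do not see a shift common to a library. Whether libraries with the same number were pairs cannot be told from them. Leaving out the mean-variance trend moved no count of members called beyond 1.5 times. Depth could not be read from FPKM, so how far it limits the low values of CDH1 in Ku cells and of SNAI2 at 250 nM was not tested.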
